A study of Mus musculus with 9 samples.

Results

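RNA-seq read counts of 32 genes that encode endoplasmic reticulum (ER) chaperones, folding enzymes, degradation components, translocon subunits and sensors of the unfolded protein response (UPR) were examined in 4T1 cells, a mouse mammary carcinoma line. The 32 genes form a list given by name rather than by a threshold on values, but chosen with earlier results of these data known. All of them were among the 24421 genes of the count table. Of these, 31 passed a filter on low counts that left 12575 genes for testing. The exception was Derl3, a derlin of ER-associated degradation, which had at most 12 counts in any of the 9 libraries.

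The cells were kept for 5 days in 1 of 3 conditions, each with 3 libraries. They grew as a monolayer (2D) with 75 µM added palmitate, as spheroids on soft agar (3D) with 75 µM added palmitate, or as spheroids without added palmitate (0 µM). All cultures were in RPMI medium with serum, so lipid from serum was present in every condition. Per the study's methods, palmitate was given bound to albumin. All libraries came from 1 cell line, and a monolayer without added palmitate was not analysed here, so palmitate could be compared within 3D only. The comparison of 3D with 2D cultures addresses growth as spheroids in the presence of palmitate, and the comparison within 3D addresses added palmitate. Both use the same 3 libraries of 3D cultures with palmitate. The labels do not say that replicates are separate cultures, so the p-values measure only the spread between these libraries, which may be technical. In bulk RNA, fewer cells that express a gene and less RNA per cell cannot be told apart.

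Newly made secretory and membrane proteins enter the ER through the Sec61 translocon, fold with the help of the Hsp70 chaperone BiP (Hspa5), the Hsp90 chaperone GRP94 (Hsp90b1), the lectins calnexin and calreticulin and the protein disulfide isomerases, and are sent back to the cytosol for degradation when folding fails. Unfolded protein is sensed by IRE1α (Ern1), which splices the Xbp1 mRNA, by ATF6, which is cleaved into a transcription factor, and by PERK (Eif2ak3), which phosphorylates the initiation factor eIF2α and thereby favors translation of ATF4. Counts per gene hold none of these activation steps: splicing of Xbp1, cleavage of ATF6 and phosphorylation of PERK or eIF2α were not measured.

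ATF6 and XBP1 are known to act through short promoter elements, and these are shown because the list includes classical carriers of such elements. The window searched ran from 250 bases before to 50 bases after each RefSeq transcription start (GRCm38.p6), and 26 of the 32 genes had one. Both strands were searched for the ER stress response element (ERSE, CCAAT, then 9 bases of any kind, then CCACG), for ERSE-II (ATTGG, then 1 base, then CCACG) and for the UPR element TGACGTGG. In the stretch before the Hspa5 start, on the plus strand of chr2:34771840-34772089, the 1 full ERSE match is in capitals.
Hspa5, 250 bases before the start: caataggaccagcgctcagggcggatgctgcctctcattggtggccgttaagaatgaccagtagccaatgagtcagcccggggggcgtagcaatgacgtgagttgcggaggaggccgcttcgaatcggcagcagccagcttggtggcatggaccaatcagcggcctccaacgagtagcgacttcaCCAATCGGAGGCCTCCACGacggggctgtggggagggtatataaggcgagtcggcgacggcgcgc

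ERSE matches were found at 9 of the 26 genes with a window (34.6%), compared with 37 of 27025 genes of the mouse promoter table (0.137%) and with 0 of 92 further ER genes. Hsp90b1 held a pair of them. The matches are printed in the direction of the motif, with the fixed bases in capitals and the bases between them in lower case. Those in the direction of the gene lay 65 bases before the start in Hspa5 (counted to the first base), 212 in Hsp90b1, 105 in Dnajc3, 145 in Canx, 98 in Pdia6 and 44 in Syvn1. Those on the opposite strand lay 107 bases before the start in Hsp90b1, 126 in Creld2, 162 in Calr and 156 in Derl3, counted to the base farthest from the start.
Hspa5, chr2:34772025-34772043: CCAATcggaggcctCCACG
Hsp90b1, chr10:86705638-86705656: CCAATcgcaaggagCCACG
Hsp90b1, chr10:86705533-86705551: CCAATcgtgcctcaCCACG
Dnajc3, chr14:118937827-118937845: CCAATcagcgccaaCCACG
Creld2, chr15:88819520-88819538: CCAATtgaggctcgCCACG
Calr, chr8:84847075-84847093: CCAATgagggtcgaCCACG
Canx, chr11:50325800-50325818: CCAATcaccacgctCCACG
Pdia6, chr12:17266491-17266509: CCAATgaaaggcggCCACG
Syvn1, chr19:6046532-6046550: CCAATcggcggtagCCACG
Derl3, chr10:75893242-75893260: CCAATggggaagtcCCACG

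ERSE-II was matched in Herpud1, 52 bases before the start, and in Dnajb11, 8 bases after it, which is 2 of 26 genes (7.69%) compared with 12 of 27025 (0.0444%) and 1 of the 92 further ER genes (1.09%).
Herpud1, chr8:94386377-94386387: ATTGGgCCACG
Dnajb11, chr16:22857852-22857862: ATTGGcCCACG
The UPR element was matched in 0 of the 26 windows, in 193 of the 27025 (0.714%) and in 7 of the 92 (7.61%). No match overlapped a match to another motif. A match is a description of letters and does not show that a factor binds there, and genes without a match may carry other elements or the same ones elsewhere.

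**Figure D1:**
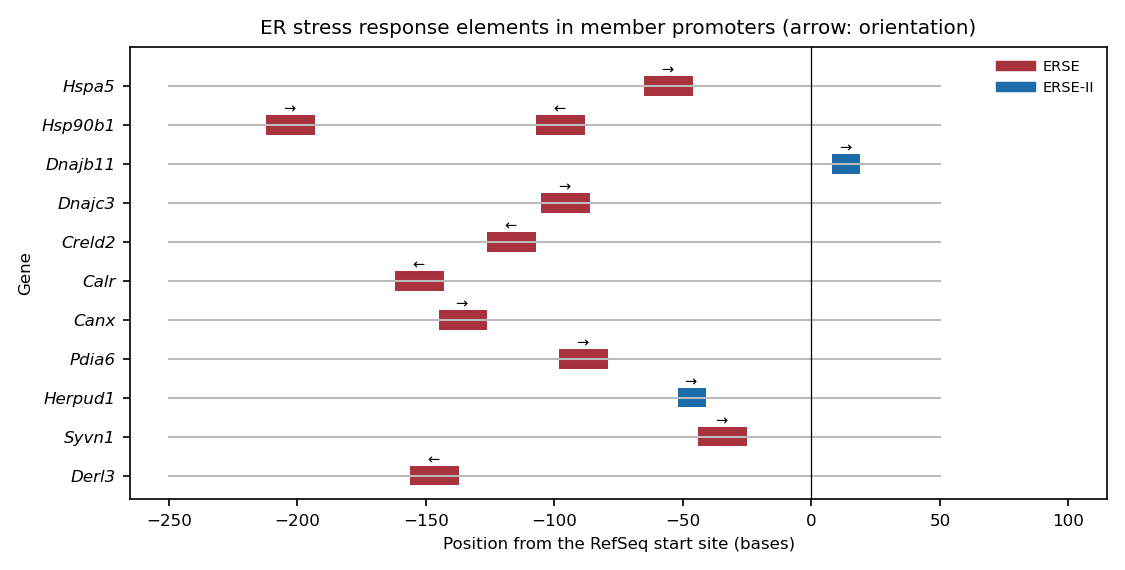
Position of each ERSE (red) and ERSE-II (blue) match relative to the RefSeq start site in bases, 1 row for each of the 11 genes with a match, with arrows for the direction of the motif. All matches except that of Dnajb11 lie before the start.

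Total counts per library were between 6595514 and 31177756, the smallest in replicate 3 of the 3D cultures with palmitate. The ribosomal RNA precursor Rn45s took 1.77% to 5.38% of the counts. Summed over 6 epithelial markers, levels were 3923 to 4237 CPM (counts scaled to the TMM-adjusted library size) in 2D and 4914 to 5163 CPM over the spheroid libraries, while 5 leukocyte markers summed to 24.4 to 28.1 CPM in 2D and 7.32 to 11.6 CPM in 3D, and 4 fibroblast markers to 29.6 to 31.2 CPM and 90.7 to 110 CPM. Within these sums the leukocyte values were almost all Cd68 and the fibroblast values almost all Pdgfra, while Cd3e and Lum were at 0, Dcn and Pdgfrb averaged at most 0.0531 CPM in any condition, and Ptprc averaged 0.0765 CPM in 2D and 0.442 to 0.491 CPM in 3D. Among the epithelial markers Krt7 ran the other way, with a mean of 866 CPM in 2D and 579 to 607 CPM in 3D. Krt14 was split, with a mean of 139 CPM in 2D, 185 CPM in 3D without palmitate and 129 CPM in 3D with it. The 4 endothelial markers summed to at most 0.579 CPM. The part of these shifts in the results was not tested. Replicates 1 and 3 of the 3D cultures with palmitate deviated from the mean of their group with GC content, in opposite directions (Spearman's rho over all genes tested of 0.612 and -0.545). Replicate 3 of the 2D cultures did so too, with a rho of 0.306. With the length of the longest transcript, the largest deviations were those of replicates 2 and 3 of 2D (rho 0.423 and -0.435). In 3D with palmitate they were -0.319 for replicate 1 and 0.318 for replicate 3.

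Per kilobase of exon, Hspa5 had the highest level of the 32 genes in each condition, followed by Hsp90b1 and Calr. The level of Hspa5 was 542 RPKM (CPM per kilobase of exon) in 2D with palmitate, 573 RPKM in 3D and 614 RPKM in 3D with palmitate, which placed it by CPM at the 99.9 percentile of the genes tested in all 3 conditions. Hsp90b1 stood at 367, 456 and 457 RPKM in the same order, and Calr at 255, 341 and 354 RPKM. The sensors Ern1 and Eif2ak3 were at the low end, while Atf6 stood at 13.0, 20.1 and 20.6 RPKM. Ern1 was the lowest tested gene of the list in 2D with 2.06 RPKM, and Eif2ak3 was the lowest in 3D with 4.32 RPKM and in 3D with palmitate with 5.01 RPKM. The highest and lowest levels were 263-fold apart in 2D, 133-fold in 3D and 123-fold in 3D with palmitate. Derl3, which carried an ERSE match, stood at 0.236, 0.168 and 0.151 RPKM. Together the 32 genes took 1.05% ± 0.00287 of all counts in 2D with palmitate, 1.26% ± 0.0213 in 3D and 1.30% ± 0.0932 in 3D with palmitate (SD, n = 3).

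In 3D compared with 2D cultures, both with palmitate, 26 of the 31 genes tested passed an adjusted p of 0.05 (edgeR's quasi-likelihood test, Benjamini-Hochberg over all genes tested), while 68.3% of all genes did. Of the 26 genes, 23 were higher in 3D, with 34.5% of all genes called higher, and 3 were lower, with 33.9% of all genes called lower. The 3 lower genes were Herpud1, Edem2 and Sec61b. The 5 that did not pass were Dnajb11, Sdf2l1, Manf, Creld2 and Derl2. The median log2 fold change was 0.33 over the 31 genes and 0.01 over all genes tested. For 27 genes the libraries of both groups did not overlap, 24 with all 3D libraries above and 3 with all below, while the groups did not overlap for 69.4% of all genes. The 3 lower genes had exon lengths of 1271 to 3463 bases and a GC content of 53.0% to 56.3%, compared with 2399 to 10431 bases and 39.8% to 56.6% for the 23 higher genes.

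**Figure D2:**
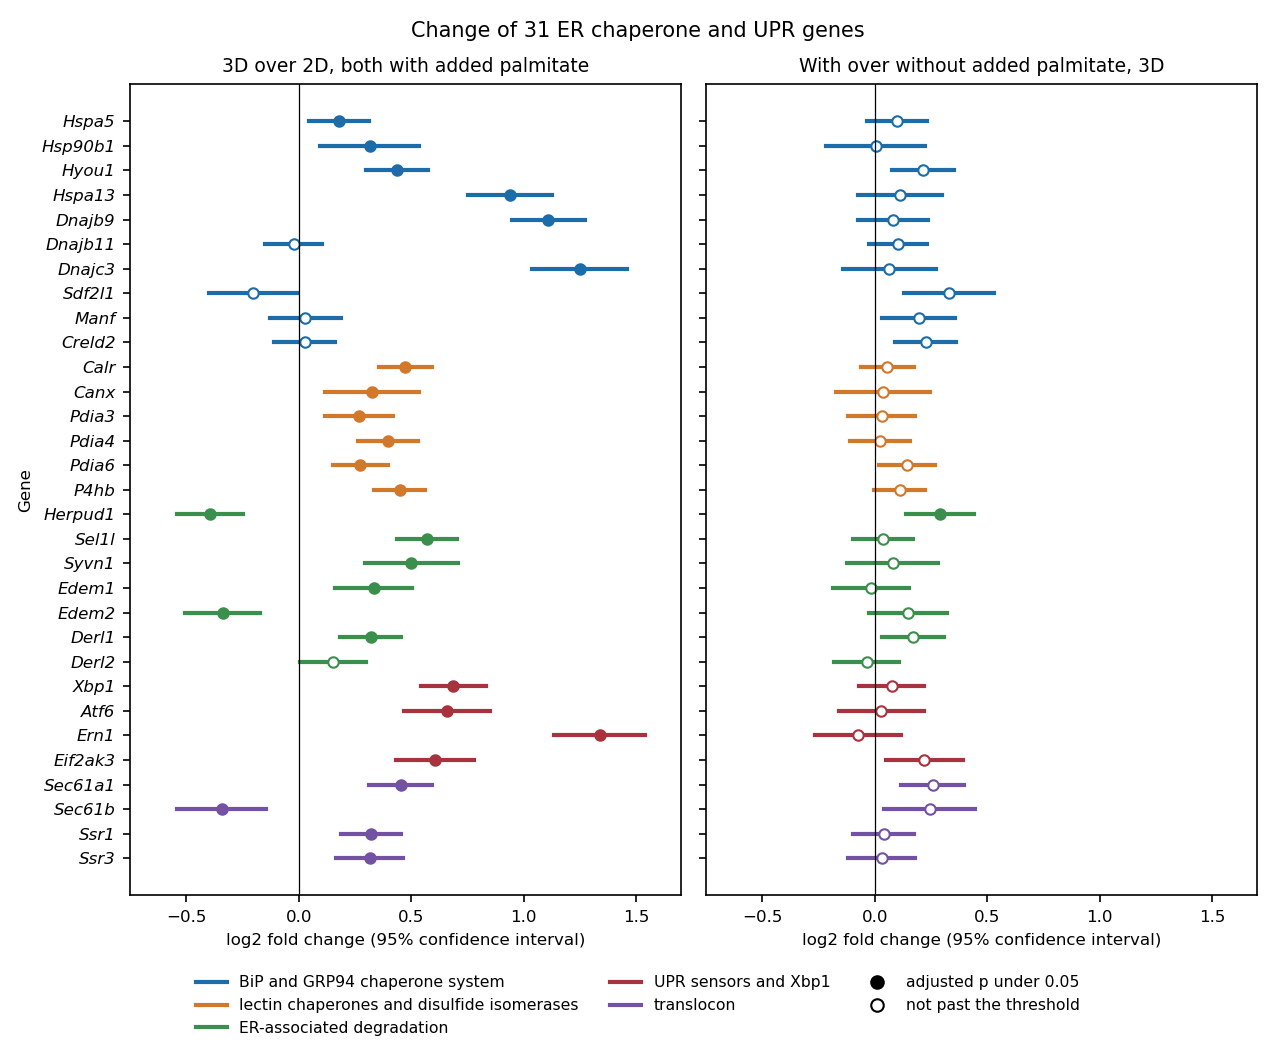
log2 fold change with 95% confidence interval of the 31 genes tested (n = 3 libraries per group), in 3D over 2D with added palmitate (left) and with over without added palmitate in 3D (right), colored by role, with filled points past an adjusted p of 0.05. On the left 23 genes lie right of 0 and 3 left of it with filled points, and on the right only Herpud1 is filled.

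All 4 of the UPR sensors and Xbp1 were higher in 3D, while 34.5% of all genes tested were called higher. Ern1, which encodes the kinase and endoribonuclease IRE1α (chr11:106394650-106487852, minus strand, GRCm38), stood at 16.2, 19.3 and 15.02 CPM in replicates 1 to 3 of 2D with palmitate and at 40.9, 43.9 and 45.2 CPM in those of 3D with palmitate. Its level in 3D without palmitate was 42.5, 46.0 and 47.5 CPM. Thus each spheroid library was above each monolayer library, and the spheroid groups overlapped. The change of 3D over 2D was 2.53-fold (log2 fold change 1.34, standard error (SE) 0.0949, adjusted p = 1.56e-08 in edgeR), the largest of the 31 genes.

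Xbp1, the mRNA that IRE1α splices (chr11:5520659-5525893, plus strand), stood at 93.0, 88.3 and 99.7 CPM in 2D with palmitate, at 155, 148 and 149 CPM in 3D with palmitate and at 150, 133 and 146 CPM in 3D without. Again the 3D libraries were all above those of 2D. The log2 difference between 3D and 2D was 0.69 (SE 0.0683, adjusted p = 5.37e-07 in edgeR), on the sum of spliced and unspliced mRNA. Atf6 (chr1:170704674-170867771, minus strand) was measured at 127, 125 and 107 CPM in 2D with palmitate, at 168, 188 and 214 CPM in 3D with palmitate and at 182, 179 and 195 CPM in 3D without, with no overlap between 2D and either 3D group. In 3D it was higher than in 2D by 0.66 on the log2 scale (SE 0.0890, adjusted p = 1.19e-05). The value was 0.33 with the dependence on GC content and length of the longest transcript fitted and removed within each library. Eif2ak3, which encodes PERK (chr6:70844515-70905245, plus strand), varied little among the 2D libraries, at 19.8, 20.02 and 19.9 CPM. Its levels in 3D with palmitate were 29.9, 32.1 and 28.5 CPM, and without palmitate 24.2, 26.0 and 27.9 CPM, so the 3 groups were separate and ordered. The change of 3D over 2D with palmitate was 0.61 (log2, SE 0.0810, adjusted p = 1.11e-05). Another gene covers 8.05% of the exon bases of Eif2ak3 on the opposite strand, and the strand setting of the counting is not given in the sources used here.

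**Figure D3:**
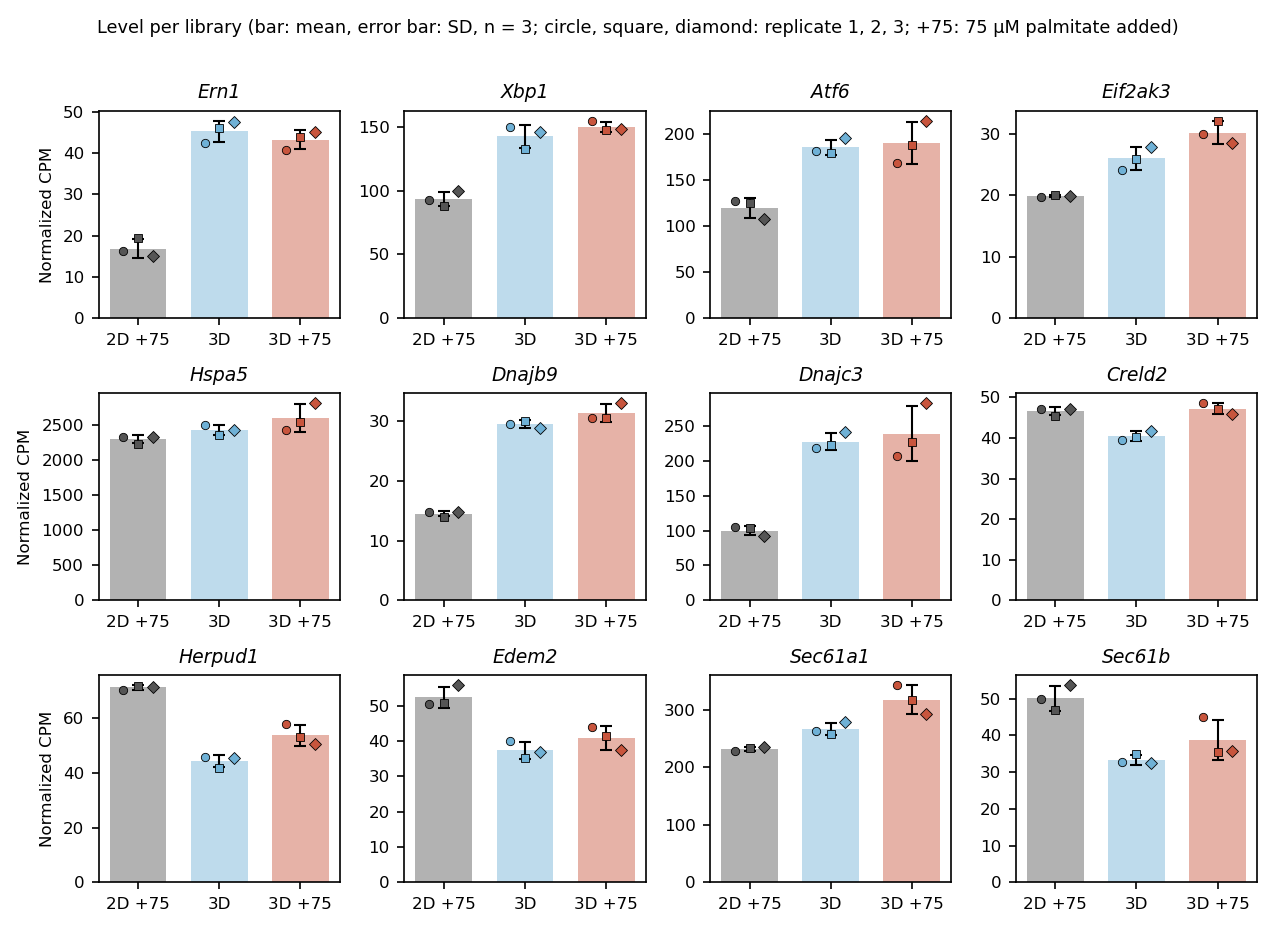
Normalized CPM of 12 genes in each library (points, replicates 1 to 3), with the group mean (bar) and SD (error bar, n = 3), for 2D with 75 µM palmitate, 3D without and 3D with it. Ern1, Xbp1, Atf6, Eif2ak3, Dnajb9 and Dnajc3 are higher in both 3D groups than in 2D, Herpud1, Edem2 and Sec61b are lower, and Hspa5 and Creld2 lie close together.

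The BiP and GRP94 chaperone system comprised 10 genes, of which 6 were higher in 3D, 0 were lower and 4 did not pass. Thus 60% of these 10 genes were called, while 68.3% of all genes tested were called and 34.5% were called higher. Hspa5 itself (chr2:34771970-34777547, plus strand) stood at 2330, 2227 and 2324 CPM in 2D with palmitate, at 2427, 2547 and 2811 CPM in 3D with palmitate and at 2496, 2353 and 2419 CPM in 3D without. All 3D libraries were above all 2D libraries, by a small margin. Its change of 3D over 2D was the smallest of the 23 higher genes, 1.13-fold (log2 fold change 0.18, SE 0.0626, adjusted p = 0.0205 in edgeR). This call was lost without replicate 3 of 3D with palmitate (0.12, adjusted p = 0.0545), without replicate 1 or 2 of the 2D cultures (0.18 and 0.15, adjusted p = 0.0565 and 0.0843) and without the filter on low counts (0.15, adjusted p = 0.0569). Hsp90b1 was measured at 1513, 1500 and 1426 CPM in 2D and at 1532, 1747 and 2252 CPM in 3D with palmitate, the highest in replicate 3, and rose by 0.32 on the log2 scale (SE 0.103, adjusted p = 0.0135). Without replicate 3 of the 3D cultures with palmitate this was 0.15, and other genes overlap 10.3% of the exon bases of Hsp90b1 on the opposite strand and 5.38% on its own.

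Larger changes were measured for the co-chaperone genes Dnajb9 and Dnajc3 and for Hspa13 and Hyou1, which encode accessory Hsp70 proteins. Dnajb9 (chr12:44205559-44210326, minus strand), whose product ERdj4 is a J-domain partner of BiP, stood at 14.7, 14.0 and 14.7 CPM in 2D, at 30.6, 30.5 and 33.1 CPM in 3D with palmitate and at 29.6, 30.1 and 28.9 CPM in 3D without. It was 2.16-fold higher in 3D than in 2D with palmitate (log2 fold change 1.11, SE 0.0760, adjusted p = 1.08e-08). Dnajc3 (chr14:118937976-118981697, plus strand), which encodes P58IPK, another J-domain partner of BiP, was at 105, 103 and 92.5 CPM in 2D, at 207, 228 and 283 CPM in 3D with palmitate and at 219, 223 and 242 CPM in 3D without. Its change of 3D over 2D with palmitate was 2.38-fold (log2 fold change 1.25, SE 0.0986, adjusted p = 4.85e-08). For both genes every 3D library lay above every 2D library. Hspa13, an Hsp70-like protein of microsomes, rose from 76.7 ± 6.54 to 148 ± 17.5 CPM (SD, n = 3; log2 fold change 0.94), and Hyou1, a large Hsp70-related chaperone that acts on BiP as a nucleotide exchange factor, from 231 ± 4.56 to 313 ± 21.3 CPM (0.44, or 0.25 with GC and length trends removed).

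The other 4 genes of this system had log2 fold changes of 3D over 2D near 0 or below it. They were -0.02 for Dnajb11, a J-domain partner of BiP (95% confidence interval -0.15 to 0.11, adjusted p = 0.754), and 0.03 for Creld2, an ER protein with EGF-like repeats (-0.11 to 0.16, adjusted p = 0.725). Manf, a secreted protein that binds BiP and whose exons another gene covers over 8.85% on the opposite strand, had 0.03 (-0.13 to 0.19, adjusted p = 0.737). Sdf2l1, a partner of the J-domain proteins, was at -0.20 (-0.40 to -0.01, adjusted p = 0.0602). These intervals of Dnajb11, Creld2 and Manf, from the main fit, did not reach the point value of Hyou1 (0.44). That value has an error of its own, and differences between genes were not tested. With GC and length trends removed, Creld2 and Hyou1 were close, at 0.24 and 0.25. Sdf2l1 was called lower without the filter on low counts (-0.23, adjusted p = 0.0352), with a replicate block (-0.23, adjusted p = 0.0498) and without replicate 1 of 3D with palmitate (-0.31, adjusted p = 0.00736). With GC and length trends removed it was at 0.06 (adjusted p = 0.406), and Manf (0.15, adjusted p = 0.0148) and Creld2 (0.24, adjusted p = 0.00190) were called higher.

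Every one of the 6 lectin chaperones and disulfide isomerases was higher in 3D, within a narrow range, while 34.5% of all genes tested were called higher. Calr (chr8:84841850-84846934, minus strand), the soluble lectin calreticulin, was at 719, 729 and 754 CPM in 2D, at 996, 998 and 1066 CPM in 3D with palmitate and at 975, 994 and 975 CPM in 3D without. P4hb (chr11:120560298-120573253, minus strand), the prototype protein disulfide isomerase, stood at 701, 701 and 712 CPM, at 983, 951 and 951 CPM and at 917, 870 and 886 CPM in the same order. In both cases all 3D libraries exceeded all 2D libraries. The rises in log2 units were 0.47 (SE 0.0553, adjusted p = 2.82e-06) for Calr and 0.45 (SE 0.0535, adjusted p = 3.54e-06) for P4hb. The membrane-bound lectin Canx followed with 0.33 (0.19 without replicate 3 of 3D with palmitate), and the disulfide isomerases Pdia4, Pdia6 and Pdia3, the last of which works with the lectins, with 0.40, 0.27 and 0.27 (adjusted p of the 4 genes between 5.27e-05 and 0.00844). The annotation holds a processed pseudogene of Calr (Calr-ps, chr2:140955765-140956249), and whether reads were split between them was not tested.

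Components of ER-associated degradation moved both ways, with 4 of 7 genes tested higher and 2 lower in 3D. Of all genes tested, 34.5% were called higher and 33.9% lower. Sel1l (chr12:91806043-91849157, minus strand), the adaptor of the HRD1 ubiquitin ligase complex, stood at 119, 124 and 111 CPM in 2D, at 168, 177 and 182 CPM in 3D with palmitate and at 168, 170 and 175 CPM in 3D without. Syvn1 (chr19:6046576-6053712, plus strand), the ligase HRD1 itself, was measured at 48.9, 46.7 and 48.3 CPM, at 78.2, 65.3 and 56.5 CPM and at 64.4, 68.4 and 59.7 CPM. Both were above 2D in every 3D library, by 0.57 on the log2 scale (SE 0.0632, adjusted p = 1.67e-06) and 0.50 (SE 0.0961, adjusted p = 0.000311). With GC and length trends removed the value of Sel1l was 0.29. The mannosidase-like Edem1 (0.33, adjusted p = 0.00197) and the derlin Derl1 (0.32, adjusted p = 0.000418) were higher as well, and Derl2 did not pass at 0.15 (adjusted p = 0.0612).

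In contrast, Herpud1 (chr8:94386438-94395377, plus strand), a membrane protein that is part of the HRD1 complex, was lower in 3D. It stood at 70.3, 71.8 and 71.5 CPM in 2D, at 57.9, 53.0 and 50.4 CPM in 3D with palmitate and at 45.9, 41.7 and 45.3 CPM in 3D without, 3 separate ranges. Relative to 2D with palmitate the log2 fold change was -0.39 (SE 0.0684, adjusted p = 0.000131). Edem2 (chr2:155701677-155729475, minus strand), which starts the mannose trimming of misfolded glycoproteins, was at 50.4, 50.9 and 55.8 CPM, at 44.1, 41.5 and 37.4 CPM and at 40.1, 35.2 and 36.8 CPM in the same order, with -0.34 (SE 0.0787, adjusted p = 0.00148). Its 3D groups overlapped each other and lay below 2D. Herpud1 and Edem2 were called lower under all 15 alternatives, Herpud1 at -0.25 with GC and length trends removed.

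Among the 4 translocon genes 3 were higher and 1 was lower in 3D, while 34.5% of all genes tested were called higher and 33.9% lower. Sec61a1 (chr6:88503579-88518905, minus strand), the channel-forming subunit, stood at 229, 233 and 236 CPM in 2D, at 342, 317 and 293 CPM in 3D with palmitate and at 263, 257 and 278 CPM in 3D without. As for Eif2ak3 and Herpud1, the 3 groups did not overlap, with Sec61a1 higher in 3D than in 2D by 0.45 on the log2 scale (SE 0.0660, adjusted p = 2.56e-05), and an overlapping gene covers 8.16% of its exon bases on the opposite strand. Ssr1 (chr13:37966605-37994217, minus strand), a subunit of the translocon-associated TRAP complex, was at 318, 318 and 314 CPM, at 372, 387 and 431 CPM and at 383, 383 and 392 CPM. It rose by 0.32 (SE 0.0627, adjusted p = 0.000352), and so did Ssr3 of the same complex (0.32, adjusted p = 0.00102). Sec61b (chr4:47474658-47483242, plus strand), the small β subunit, ran opposite to Sec61a1, with 49.9, 46.8 and 53.7 CPM in 2D, 45.1, 35.5 and 35.8 CPM in 3D with palmitate and 32.7, 34.8 and 32.5 CPM in 3D without. Its log2 fold change of 3D over 2D was -0.34 (SE 0.0925, adjusted p = 0.00419). In summed exon length Ssr1 is the longest of the 31 genes (10431 bases) and Sec61b is among the shortest (1271 bases). The trends were fitted on the length of the longest transcript instead, and whether length set these changes was not tested. With the GC and length trends removed, both changes turned in sign and were not called, at -0.07 for Ssr1 (adjusted p = 0.246) and 0.03 for Sec61b (adjusted p = 0.745), and Edem1 was no longer called (0.07, adjusted p = 0.249).

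Of the 9 genes with an ERSE match, 8 were tested, as Derl3 was not. Of these 8, 7 were higher in 3D than in 2D and Creld2 did not pass. Of the 17 with a window but no ERSE match, 11 were higher, 3 lower and 3 did not pass. In the whole list 23 of 31 genes were higher, and over all genes tested 34.5% were called higher and 33.9% lower. Whether genes with and without a match differed was not tested. Both genes with an ERSE-II match were outside the higher group, Herpud1 as lower and Dnajb11 as not passing. With palmitate in 3D, 8 genes with an ERSE match were tested and did not pass, while 2.19% of all genes passed.

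Adding palmitate to 3D cultures moved the 31 genes less. A single gene, Herpud1, passed an adjusted p of 0.05 in edgeR, while 2.19% of all genes passed and 1.38% were called higher. At an unadjusted p under 0.05 there were 10 genes, all higher, while 17.3% of all genes had such a p. Log2 fold changes were positive for 28 genes and negative for Edem1, Derl2 and Ern1, while they were positive for 52.2% of all genes, with a median of 0.08 compared with 0.01 over all genes. The groups did not overlap for 12 genes, in each case with all libraries with palmitate above, while 10.4% of all genes were separate in that direction and 18.6% in either. Every 95% confidence interval lay between -0.26 (Ern1) and 0.53 (Sdf2l1), so that a rise or fall of 2-fold, 1 on the log2 scale, was outside the interval of each gene.

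The Herpud1 libraries with and without palmitate, given above, did not overlap, and the gene rose 1.22-fold (log2 fold change 0.29, SE 0.0700, adjusted p = 0.0478). This call was close to the threshold and was lost in 10 of the 15 alternatives, where the adjusted p reached 0.265, among them each fit without 1 library other than replicate 3 of 3D with palmitate (log2 fold change 0.23 to 0.31). For Sec61a1 the 3 libraries with palmitate lay above the 3 without, with 0.26 on the log2 scale (SE 0.0659, adjusted p = 0.0583). Creld2 stood at 48.6, 47.3 and 45.8 CPM with palmitate and at 39.4, 40.3 and 41.8 CPM without, again with no overlap and a difference of 0.23 in log2 (SE 0.0636, adjusted p = 0.0824). In 2D with palmitate Creld2 was at 47.2, 45.5 and 47.1 CPM, the range of the 3D cultures with palmitate.

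The next by p were Sdf2l1 (log2 fold change 0.33, adjusted p = 0.0859), Hyou1 (0.21, adjusted p = 0.0983) and Eif2ak3 (0.22, adjusted p = 0.170), none of which passed. Hspa5 differed by 0.10 (95% confidence interval -0.03 to 0.23), Hsp90b1 by 0.00 (-0.22 to 0.22), Xbp1 by 0.08 (-0.07 to 0.22), Atf6 by 0.03 (-0.16 to 0.22) and Ern1 by -0.07 (-0.26 to 0.12). For these 5 genes the libraries with and without palmitate overlapped.

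Herpud1, Sdf2l1, Sec61b, Edem2 and Dnajb11 had log2 fold changes below 0 for 3D over 2D with palmitate and above 0 with palmitate in 3D. Side by side these were -0.39 and 0.29 for Herpud1, -0.20 and 0.33 for Sdf2l1, -0.34 and 0.24 for Sec61b, -0.34 and 0.15 for Edem2 and -0.02 and 0.10 for Dnajb11. Of the 5 genes Herpud1 alone was called in both comparisons. With the GC and length trends removed, the values of 3D over 2D were above 0 for Sdf2l1, Sec61b and Dnajb11, and without replicate 1 of 3D with palmitate the palmitate value of Sec61b was 0.0957. The libraries of 3D with palmitate are the numerator of both comparisons.

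Replicate 3 of the 3D cultures with palmitate bore on this comparison. It was the highest library of its group for 16 of the 31 genes, whose median GC content was 45.8%, and the lowest for 11 genes, whose median GC content was 53.3%. Across the 31 genes the log2 ratio of replicate 3 to replicate 1 had a Spearman's rho of -0.842 with GC content, a description over genes of the same libraries. Without this library 9 of the 31 genes were called with palmitate, all higher, while 14.9% of all genes were called. They were Sdf2l1 (0.41), Herpud1 (0.33), Sec61a1 (0.31), Sec61b (0.29), Manf (0.27), Hyou1 (0.26), Eif2ak3 (0.25), Creld2 (0.24) and Derl1 (0.22). With the GC and length trends removed in place of leaving out a library, 4 genes were called, Herpud1 (0.24), Sec61a1 (0.23), Hyou1 (0.23) and Sdf2l1 (0.26), while 7.67% of all genes were called.

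**Figure D4:**
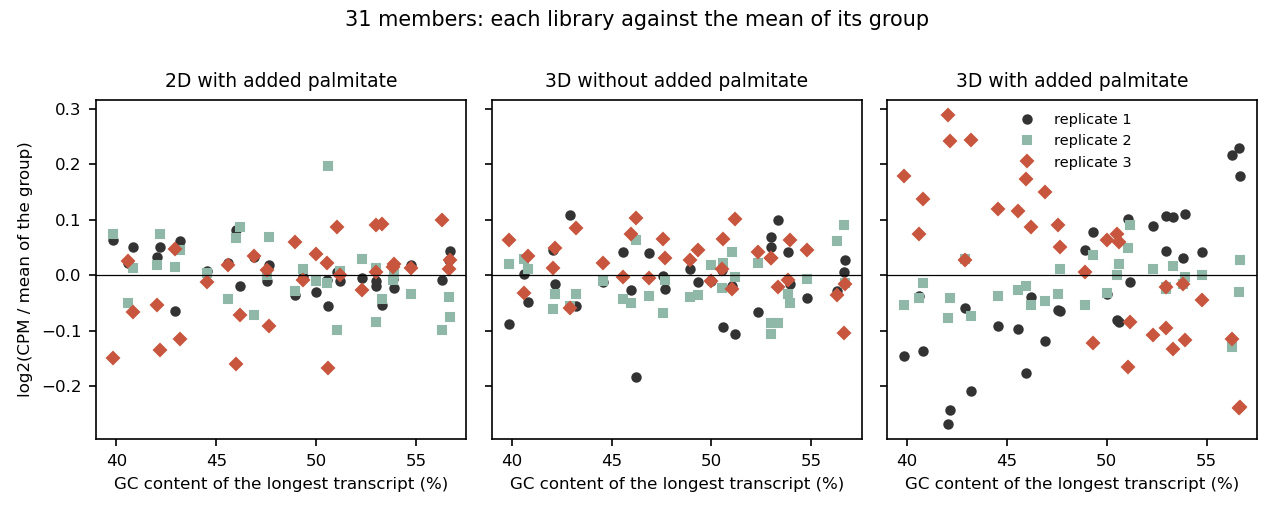
log2 ratio of each library's CPM to the mean of its group, against the GC content (%) of the 31 genes, 1 panel per condition. In 3D with palmitate, replicate 3 falls with GC content and replicate 1 rises (rho of their log2 ratio -0.842), while in the other panels the replicates lie closer together.

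Outside the 32 genes, 6 lists of other ER and UPR genes were counted, 119 genes in all that passed the filter. In 3D compared with 2D with palmitate, 89 of them were called, 59 higher and 30 lower. Over all genes tested 68.3% were called, 34.5% higher and 33.9% lower. Other folding and disulfide genes were higher for 15 of 29 and lower for 6, among them the ER oxidase Ero1lb (log2 fold change 1.76), the glycoprotein folding sensor Uggt1 (0.93), Pdia5 (-0.61) and Erp29 (-0.59). Other degradation genes were higher for 12 of 21 and lower for 2, with the cytosolic glycanase Ngly1 at 1.62 and Vimp, which recruits the ATPase p97, at 0.82, against -0.68 for Aup1 and -0.19 for the ubiquitin-conjugating enzyme Ube2g2. Of 30 translocation and N-glycosylation genes, 12 were higher and 9 lower. The oligosaccharyltransferase subunits in it went both ways, Tusc3 at 0.85 and Magt1 at 0.69 but Krtcap2 at -0.89, and Srp19 of the signal recognition particle was at -0.61. ER exit and retrieval genes were mainly higher, 13 of 19 with 1 lower, with the COPII proteins Sec16a at 0.70 and Sec24d at 0.55 and Sec13 at -0.42. Other UPR regulators were higher for 7 of 10 and lower for 2, with the transcription factor Creb3l2 at 1.40, the ER membrane protein Wfs1 at 0.70, the IRE1α adaptor Traf2 at -0.29 and Rtcb, which joins the Xbp1 exons, at -0.15.

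Genes listed as outputs of PERK and ATF4 ran opposite to the mRNA of Eif2ak3 in 3D compared with 2D. Whether PERK set their levels here was not tested, and this list was chosen with earlier results of these data known. All 10, including Ppp1r15b, which is known as a constitutive subunit of the phosphatase of eIF2α, were lower in 3D than in 2D with palmitate (median log2 fold change -1.17). Of all genes tested, 33.9% were called lower in that comparison. Atf4 stood at 705, 669 and 739 CPM in 2D, at 313, 330 and 312 CPM in 3D with palmitate and at 294, 266 and 269 CPM in 3D without. Every 2D library was thus above every 3D library, and Atf4 differed by -1.15 on the log2 scale (SE 0.0639, adjusted p = 1.26e-09). The smallest p values of the list were those of Chac1, a glutathione-degrading enzyme (-1.61), and Asns, asparagine synthetase (-1.33), and Ddit3, the transcription factor CHOP, fell by 0.85. With palmitate in 3D, 5 of the 10 were higher and 0 lower, while 1.38% of all genes were called higher. Ppp1r15a, the inducible subunit of that phosphatase, rose by 0.93 (adjusted p = 9.72e-05) from 11.5, 11.6 and 10.5 CPM to 21.4, 20.3 and 23.0 CPM, and Chac1 rose by 0.65 (adjusted p = 0.00178). The others were Atf3, Asns and Sesn2. Across the alternatives 9 or 10 of the 10 were lower in 3D than in 2D, and from 2 to 7 were higher with palmitate. In the remaining 5 lists, calls with palmitate were limited to Pdia5 (0.46, adjusted p = 0.0131) and Srprb (0.29, adjusted p = 0.0498), both higher. Srprb encodes a subunit of the signal recognition particle receptor, and its call was close to the threshold. Over all genes tested, 2.19% were called and 1.38% were called higher. The number of genes called with palmitate in the 6 lists together ran from 2 to 26 across the alternatives.

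**Figure D5:**
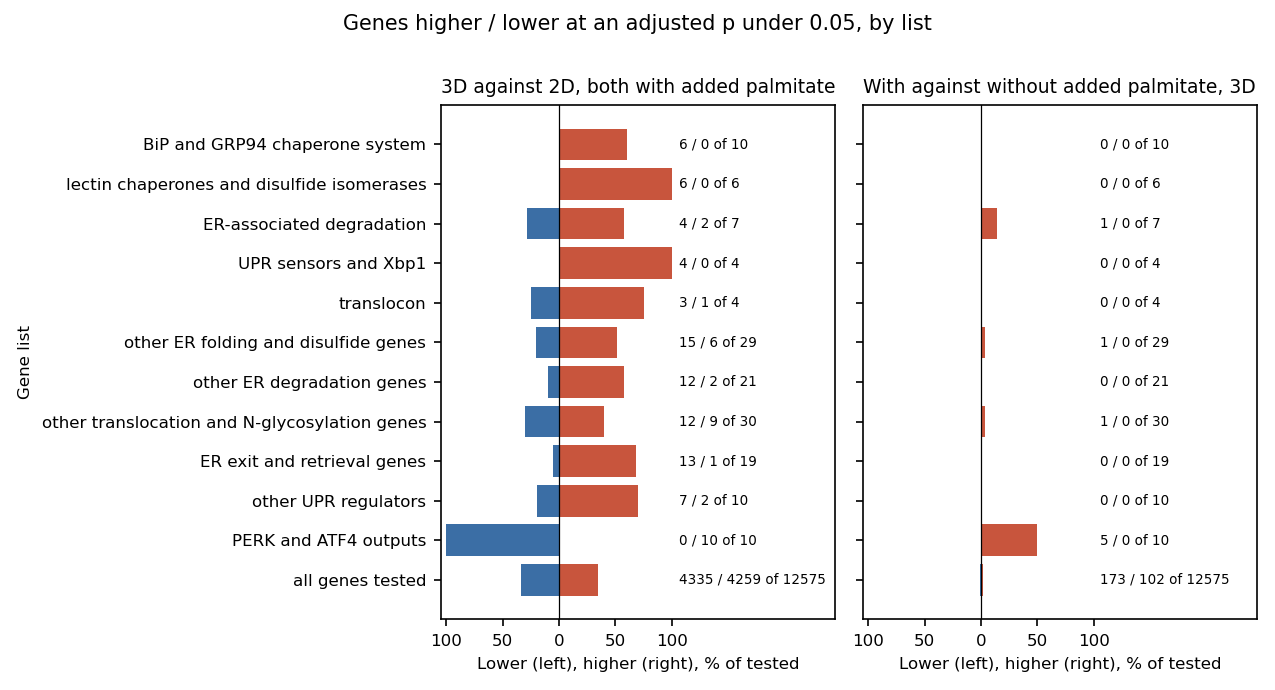
Share (%) of tested genes called lower (left, blue) and higher (right, red) at an adjusted p under 0.05, for the 5 roles, the 6 other lists and all genes, with the counts of higher and lower genes beside the bars. In 3D over 2D most ER lists lean to higher while all 10 PERK and ATF4 outputs are lower, and with palmitate in 3D that list has 5 of 10 higher.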

How the data were processed

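RNA of 9 libraries was sequenced as stranded poly(A) libraries with 50 bp single-end reads. The values deposited by the authors are unnormalized read counts for each gene, made with HISAT2 (version 2.1.0) on GRCm38 and HTSeq-count after inspection with FastQC (version 0.11.9). The annotation release and strand setting are not given in the sources used here. Libraries were grouped by their labels. Counts were fitted in R 4.3.3 with edgeR 4.0.16 (filterByExpr with a minimum count of 10, TMM, quasi-likelihood test, all 9 libraries, condition as the only term), with Benjamini-Hochberg adjustment over 12575 genes, called at an adjusted p under 0.05. The scripts were tested on simulated data. RPKM used the summed exon length of the GRCm38 annotation. The promoter windows were those of RefSeq.

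The member genes, the roles and the other lists were chosen with earlier results of these data known. Every member was named. Library values were given for Hspa5, Xbp1, Atf6, Ern1 and Eif2ak3, for the 2 called genes with the smallest p in each direction in each role, and with palmitate for the 3 genes with the smallest p. From each other list the 2 called genes with the smallest p in each direction were named. Values of Hsp90b1, Hspa13, Hyou1, Atf4, Ddit3 and Ppp1r15b were added after they were seen, as were those of genes near the threshold. Of 124 genes in the other lists, 123 were matched in the table by symbol. A planned count of ER retrieval signals in proteins was not run.

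Alternatives were another size factor (RLE), library size only, no filter, at least 10 counts in every library, only the 2 groups compared, a replicate block, DESeq2 1.42.0, the Rn45s share as a covariate, removal of GC and length trends by splines with 4 degrees of freedom, and each library left out. GC content and length in these trends were those of the longest transcript, not of the summed exons. Within groups, the chi-square per gene between 2 libraries (at least 20 counts together) was 3.89 to 19.7, above sampling noise. Each library was counted as 1 replicate, but this spread may be technical and does not show that libraries are separate cultures.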

Additional observations from a re-analysis of the deposited data

How the results depend on the processing

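The 26 called genes of the list in 3D against 2D became 25 to 28 in all 15 alternatives. They were 27 with a replicate block and 25 to 28 with 1 library left out. The 89 called genes of the other lists became 81 to 95 (85 with a replicate block). In the same comparison the share of all genes called, 68.3% as reported, was 48% without the filter and 62.5% to 71.2% in the other alternatives. With palmitate, the 1 called gene became 0 with library size only, with at least 10 counts in every library, with only the 2 groups compared, with the Rn45s share as a covariate and with a replicate block, 3 without the filter and with DESeq2, 4 with GC and length trends removed, and 0 to 9 with 1 library left out. Calls over all genes, 275 as reported, were 617 without the filter, 399 with DESeq2, 965 with GC and length trends removed, 44 to 233 in the 5 fits with 0 calls in the list, and 71 to 1901 with 1 library left out. The 7 called genes of the other lists became 2 with only the 2 groups compared and with the Rn45s covariate, 16 with GC and length trends removed, 5 with a replicate block, and 2 to 26 with 1 library left out, the highest, of which 23 were higher and 3 lower, without replicate 3 of 3D with palmitate. The cause of these shifts was not tested. Same-numbered libraries did not deviate together (correlations of -0.24 to 0.15 over 9 pairs, against -0.17 to 0.28 over 18 other pairs), so the replicate block was not taken as a pairing.

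In 3D against 2D, log2 fold changes turned in sign for Sec61b (0.0260), Ssr1 (-0.0670), Dnajb11 (0.0666) and Sdf2l1 (0.0619) with GC and length trends removed and for Creld2 (-0.000754) without the filter. With 1 library left out, those of Dnajb11 ranged from -0.0596 to 0.0165 and those of Manf from -0.0247 to 0.10. With palmitate in 3D, Hsp90b1 was at -0.0212 with library size only, -0.0199 without the filter, -0.00773 with at least 10 counts in every library, -0.00453 with only the 2 groups and -0.00588 with a replicate block. Edem1 was at 0.00828 with the Rn45s covariate, and with GC and length trends removed Edem1 was at 0.0276, Derl2 at 0.0101 and Pdia4 at -0.00512. With 1 library left out, the genes whose sign turned in at least 1 fit, none of them called, had the ranges Hsp90b1 -0.17 to 0.12, Dnajc3 -0.0699 to 0.16, Canx -0.10 to 0.14, Pdia3 -0.0512 to 0.0851, Pdia4 -0.0220 to 0.0581, Syvn1 -0.0609 to 0.17, Edem1 -0.10 to 0.0373, Derl2 -0.0658 to 0.0208, Atf6 -0.0626 to 0.11, Ssr1 -0.0245 to 0.0813 and Ssr3 -0.0441 to 0.0930. For 8 of them, among them Hsp90b1, Dnajc3 and Atf6, the sign turned without replicate 3 of 3D with palmitate.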
